A study of Mus musculus with 12 samples.

Results

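The 36 genes described here are interferon response genes and interferon-induced GTPases, followed by name in mouse CD4+ T cells with and without the repressor Bach2. They were taken by their symbols from the 23700 loci of the expression tables, and each of the 36 was found once. The study holds 10 RNA libraries, 1 library of DNA pulled down with an antibody to Bach2 (chromatin immunoprecipitation, ChIP) and its input. The study asked how the loss of Bach2 changes gene expression in induced regulatory T (iTreg) cells, and where Bach2 is bound in them. All cells came from C57BL/6J mice and began as sorted naive CD4+ T cells (CD44-CD25-CD62L+).

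Bach2KO iTreg cells (3 libraries) were Bach2-deficient by their label, which does not describe the allele, nor the age or number of the animals. WT iTreg cells (3 libraries) were wild type. Both were cultured for 3 days on plate-bound antibodies to CD3 and CD28 (10 µg/ml each) with 100 IU/ml IL-2 and 5 ng/ml human TGF-β1. Wild type Th1, Th2 and Th17 cultures gave 1 library each after 3 days on the same antibodies. Th1 cultures had 20 ng/ml IL-12 and an antibody to IL-4, and Th2 cultures had 20 ng/ml IL-4 and an antibody to IFN-γ. Th17 cultures had 20 ng/ml IL-6, 2 ng/ml TGF-β1 and both antibodies, each at 10 µg/ml. The antibody to IFN-γ was thus in the Th2 and Th17 cultures and not in the Th1 or iTreg cultures. Freshly sorted wild type naive cells gave 1 library, and the ChIP and input libraries came from WT iTreg cells.

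Interferons act through receptors on the cell surface that activate JAK kinases and STAT factors. Type I interferons signal mainly through a complex that holds STAT2 and IRF9 and binds interferon-stimulated response elements (ISREs), and IFN-γ signals mainly through GAS elements. The guanylate-binding proteins and the immunity-related GTPases (IRGs) are known as strongly IFN-γ-induced defences against intracellular pathogens, whereas the Ifit, Oas and Mx families are known as antiviral effectors of type I interferon. Bach2 is a transcriptional repressor that binds Maf recognition elements together with small Maf proteins, at motifs that resemble AP-1 sites.

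Expression was deposited as FPKM, fragments per kilobase of transcript scaled to library size, and differences between genotypes are given as Bach2KO minus WT on the log2(FPKM + 0.5) scale, which understates the change of low genes. Bach2 itself stood at 3.91, 3.39 and 4.12 FPKM in Bach2KO cells, against 17.9, 17.7 and 17.2 FPKM in WT cells, so transcript was reduced in the libraries labelled Bach2KO and not absent. Whether it covers a deleted part is not given in the sources used here. Reads were estimated from the deposited intervals and summed over loci with a single annotated start and no failed estimate, which are only part of all loci. They came to 19.9 to 23.8 M in Bach2KO, 18.1 to 19.0 M in WT and 12.3 to 18.3 M in the single libraries. CD4 T cell genes were high throughout, with Cd3e between 148 and 242 FPKM. Foxp3, the defining factor of regulatory T cells, was at 7.68, 19.7 and 5.81 FPKM in Bach2KO iTreg cells, against 69.6, 66.7 and 81.1 FPKM in WT iTreg cells. Of the 5 regulatory T cell genes followed, Foxp3, Ikzf4 and Itgae were called lower in Bach2KO cells, Il2ra was called higher and Ctla4 was not called. Il2ra was at 288, 380 and 268 FPKM in Bach2KO and 72.2, 68.0 and 95.5 FPKM in WT cells. The summed level of the 5 genes was 511 to 585 FPKM in Bach2KO and 397 to 437 FPKM in WT cells. B cell genes were present unevenly, with a summed level of 12.8 to 19.3 FPKM over 7 genes in Bach2KO cells, against 63.3, 11.4 and 35.97 FPKM in WT replicates 1, 2 and 3. Of 8 plasmacytoid dendritic cell genes, Siglech and Cox6a2 were under 0.5 FPKM in every iTreg library. The summed level was 29.5 to 34.2 FPKM in Bach2KO and 36.5 to 56.0 FPKM in WT cells. Runx2 and Ccr9 were called higher in Bach2KO cells, Tcf4, Ly6d and Pacsin1 lower, and Spib was not called. Pacsin1 alone was at 29.8, 29.6 and 26.8 FPKM in WT cells and at 20.0 FPKM in the naive library, and Ly6d is also among the B cell genes. The sum therefore does not measure these cells. Of 7 natural killer and CD8 T cell genes, Ncr1 and Klrb1c were under 0.5 FPKM in every iTreg library. The summed level was 27.4 to 32.6 FPKM in Bach2KO and 10.8 to 12.9 FPKM in WT cells. Eomes alone was at 16.5, 19.6 and 14.6 FPKM in Bach2KO cells. Eomes, Cd8a and Cd8b1 were called higher and Klrd1 and Prf1 lower. With WT means under 0.5 FPKM, Eomes and Cd8a entered the test only through the Bach2KO libraries, so a higher call was favoured beforehand. Prf1, with a Bach2KO mean of 0.355 FPKM, entered only through the WT libraries, which favoured a lower call. In these bulk samples fewer cells of a type and less RNA per cell cannot be told apart. The labels do not say whether replicates were separate animals or cultures, so p-values measure only the spread between these samples, which may be technical.

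The promoters of several members carry both the element read by interferon-activated factors and one of the kind read by Bach2. The 250 bases before the start of 6 genes are given because they hold such elements and because the genes differ in how they responded. They come from RefSeq, build GRCm38.p6, and run 5′ to 3′ on the strand of the gene. Capitals mark the ISRE core GAAANNGAAA and the Maf or AP-1 core TGANTCA, on either strand, and neighbouring ISRE matches that overlap run together.
Irgm1, chr11:48871421-48871670, minus strand: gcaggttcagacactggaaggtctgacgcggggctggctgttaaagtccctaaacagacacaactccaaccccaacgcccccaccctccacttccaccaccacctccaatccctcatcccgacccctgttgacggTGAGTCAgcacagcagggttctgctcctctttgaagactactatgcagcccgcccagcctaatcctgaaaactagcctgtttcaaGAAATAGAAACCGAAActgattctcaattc
Rsad2, chr12:26456453-26456702, minus strand: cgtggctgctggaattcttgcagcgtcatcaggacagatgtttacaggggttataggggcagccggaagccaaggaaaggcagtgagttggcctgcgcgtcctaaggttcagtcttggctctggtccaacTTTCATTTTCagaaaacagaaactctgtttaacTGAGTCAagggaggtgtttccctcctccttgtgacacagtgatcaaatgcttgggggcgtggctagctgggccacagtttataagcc
Gbp2, chr3:142620413-142620662, plus strand: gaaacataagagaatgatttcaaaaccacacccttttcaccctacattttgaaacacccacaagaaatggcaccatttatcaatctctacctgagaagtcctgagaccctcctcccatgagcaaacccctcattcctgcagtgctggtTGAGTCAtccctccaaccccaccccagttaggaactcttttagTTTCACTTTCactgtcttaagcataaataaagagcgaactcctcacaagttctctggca
Ifit3, chr19:34583279-34583528, plus strand: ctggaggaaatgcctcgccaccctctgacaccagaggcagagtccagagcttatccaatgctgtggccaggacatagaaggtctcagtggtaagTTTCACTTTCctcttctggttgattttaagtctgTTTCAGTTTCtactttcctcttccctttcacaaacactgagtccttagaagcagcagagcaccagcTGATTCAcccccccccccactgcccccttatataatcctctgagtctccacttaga
Ifit1, chr19:34640639-34640888, plus strand: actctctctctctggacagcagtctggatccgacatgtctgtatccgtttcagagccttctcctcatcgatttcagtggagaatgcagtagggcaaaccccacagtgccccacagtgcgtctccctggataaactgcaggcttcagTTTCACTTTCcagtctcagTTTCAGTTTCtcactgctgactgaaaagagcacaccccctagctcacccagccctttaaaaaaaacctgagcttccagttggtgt
Socs1, chr16:10785537-10785786, minus strand: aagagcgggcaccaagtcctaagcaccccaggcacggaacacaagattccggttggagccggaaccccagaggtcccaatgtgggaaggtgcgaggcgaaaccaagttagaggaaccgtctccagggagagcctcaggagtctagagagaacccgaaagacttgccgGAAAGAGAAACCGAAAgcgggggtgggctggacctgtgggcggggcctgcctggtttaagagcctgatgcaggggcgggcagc
Irgm1, Rsad2, Gbp2 and Ifit3 held both cores within the window, and the 2 cores did not overlap in any of them. Ifit1 and Socs1 held a pair of ISRE cores and no Maf or AP-1 core.

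In the RefSeq table, 27 of the 36 members had a promoter, read from 250 bases before to 50 after the start. The ISRE core was found in 16 of the 27 (59.3%), against 3.99% of the promoters of 27025 genes. The GAS core TTCNNNGAA was found in 7 (25.9%), against 9.55% of all genes, and the Maf or AP-1 core in 6 (22.2%), against 8.97%. Both the ISRE and the Maf or AP-1 core occurred in 4 members (14.8%), against 0.466% of all genes. The members are known interferon targets, and a match of letters describes the sequence and shows neither binding nor use.

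Most of the tested members were higher in Bach2KO than in WT iTreg cells, and so were all 7 tested GTPases. Of the 36 members, 31 reached the mean of 0.5 FPKM over the 6 iTreg libraries that the test required. In limma with Benjamini-Hochberg adjustment over all 11473 tested loci, 21 of the 31 rose (67.7%) and 3 fell, while 7 did not pass an adjusted p of 0.05. Over all tested loci, 41.0% were called higher and 33.6% lower, together 74.7%, so a call in itself was the usual outcome. The median difference was 0.89 over the 31 members and 0.07 over all tested loci. The 3 Bach2KO libraries and the 3 WT libraries did not overlap in 25 of the 31 (79.4% of all loci), with Bach2KO above in 22 (43.4% of all loci). The genotypes also differed in scale, with summed FPKM of 545183 to 553892 in Bach2KO and 432450 to 437849 in WT libraries. With all libraries brought to the same sum, 3283 loci were called higher and 5419 lower in place of 4709 and 3857, and the median of all loci moved to −0.18. Of the members, 19 were then higher and 3 lower, with a median of 0.62. Irf9 and Trim21 lost the call. Markers of some other T cell states moved with the genotype. The summed level of 4 Th1 genes was 93.8 to 97.9 FPKM in Bach2KO and 2.02 to 2.94 FPKM in WT cells. Of these, Cxcr3 was at 63.4, 50.9 and 65.9 FPKM in Bach2KO cells but at 1.24 FPKM in the Th1 library. There the sum was 200 FPKM, with Il12rb2 at 151 FPKM, so the sum does not measure likeness to Th1 cells. That of 4 Th2 genes was 27.5 to 50.6 FPKM in Bach2KO and 8.88 to 9.77 FPKM in WT cells. That of 4 Th17 genes overlapped, at 13.1 to 30.9 FPKM in Bach2KO and 20.0 to 21.6 FPKM in WT cells. The summed level of 4 genes of naive cells was 515 to 591 FPKM in Bach2KO and 1463 to 1524 FPKM in WT cells. The part of these states in the levels of the members was not tested.

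**Figure D1:**
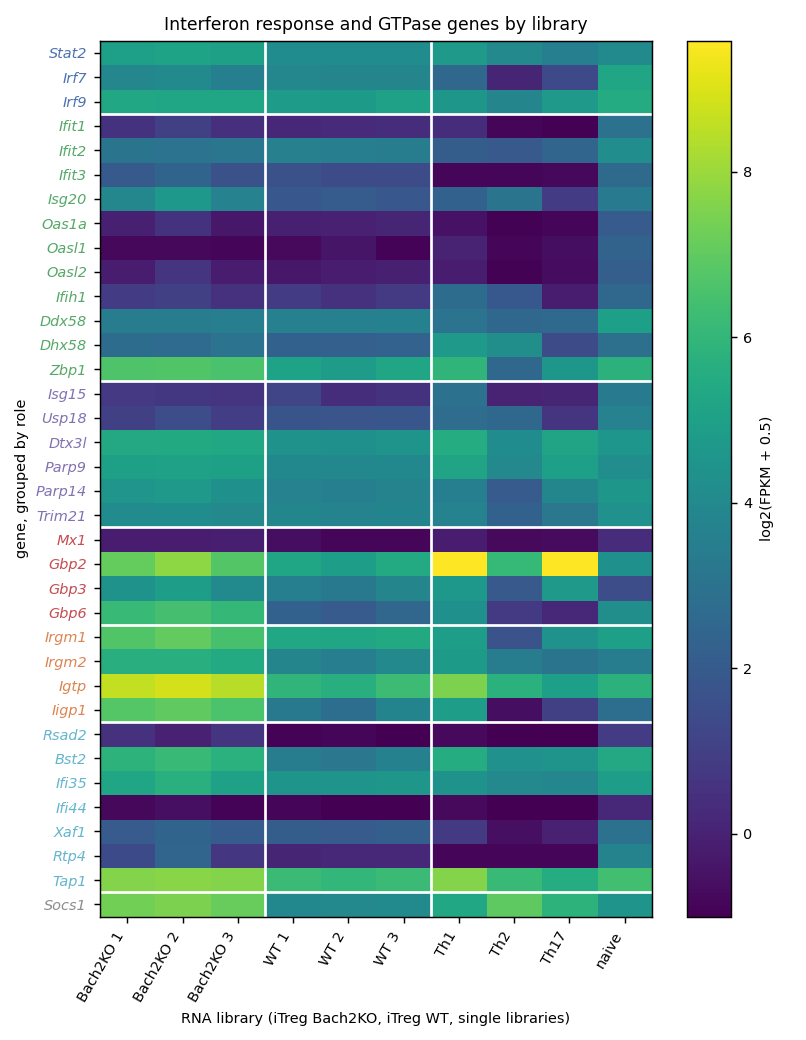
Level of each of the 36 members on the log2(FPKM + 0.5) scale (colour), with genes down the page grouped by role and libraries across it, Bach2KO iTreg before WT iTreg and the Th1, Th2, Th17 and naive libraries last. Igtp, Gbp2, Tap1 and Socs1 are brightest in the Bach2KO columns of the iTreg libraries, Gbp2 is brightest of all in Th1 and Th17 cells, and the Ifit and Oas genes are brightest in naive cells.

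Among the 3 transcription factors of the set, the partners of the type I complex were higher and Irf7 was not called. Stat2, a STAT factor that acts below the type I receptor, was at 31.2, 34.5 and 31.8 FPKM in Bach2KO cells, against 17.0, 17.1 and 17.4 FPKM in WT cells. The libraries of the genotypes did not overlap, and Stat2 rose by 0.90 (SE 0.049, limma adjusted p = 1.8e-05). Irf9, the DNA-binding partner of the complex, was at 39.5, 36.5 and 36.9 FPKM in Bach2KO cells, against 28.7, 26.5 and 32.5 FPKM in WT cells. It rose by 0.36 (limma adjusted p = 0.0068), and this call was lost with equal sums (difference 0.09, adjusted p = 0.316). Irf7, the factor that amplifies type I interferon, was at 14.3, 16.1 and 11.4 FPKM in Bach2KO cells, against 14.2, 13.4 and 13.5 FPKM in WT cells. The groups overlapped and the difference was 0.01 (SE 0.12, limma adjusted p = 0.938), with its sign turned under each other scaling.

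Of the 11 RNA sensors and RNA-binding effectors, 9 were tested, and 3 rose (33.3%, beside 41.0% of all loci), 2 fell (22.2%, beside 33.6%) and 4 were not called. These shares were not above those of all loci. Isg20, an RNA exonuclease, rose by 2.14 (limma adjusted p = 3.4e-04), with 14.5, 24.2 and 12.5 FPKM in Bach2KO cells and 3.17, 3.69 and 3.13 FPKM in WT cells. Zbp1, a sensor of Z-form nucleic acids that can trigger cell death, was at 100.5, 105.4 and 92.6 FPKM in Bach2KO cells and at 34.3, 28.7 and 37.6 FPKM in WT cells. All 3 Bach2KO libraries were above all WT libraries in both genes, and Zbp1 rose by 1.56 (limma adjusted p = 4.3e-05). Dhx58, a regulator of the RIG-I-like receptors, rose by 0.54 (limma adjusted p = 0.0033).

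The 2 sensors and effectors that fell did so by small amounts. Ifit2, a member of the tetratricopeptide antiviral family, was at 8.01, 7.77 and 8.32 FPKM in Bach2KO cells, against 11.7, 10.99 and 10.8 FPKM in WT cells. It fell by 0.45 without overlap of the groups (limma adjusted p = 3.8e-04). Ddx58, the sensor RIG-I, was at 10.2, 10.6 and 11.01 FPKM in Bach2KO cells and at 11.8, 11.8 and 11.9 FPKM in WT cells. The groups did not overlap, but the fall of 0.15 (limma adjusted p = 0.0199) lost its call without Bach2KO replicate 1 (adjusted p = 0.0828) or any one WT replicate (0.0563 to 0.0609).

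The neighbours of Ifit2 on chromosome 19 did not pass the test. Ifit1, which binds RNA that lacks normal capping, was at 0.985, 1.51 and 0.843 FPKM in Bach2KO cells, against 0.680, 0.702 and 0.806 FPKM in WT cells (difference 0.37, limma adjusted p = 0.086). Ifit3 was at 3.51, 4.80 and 2.54 FPKM in Bach2KO cells and at 2.63, 2.16 and 2.17 FPKM in WT cells (difference 0.52, limma adjusted p = 0.062). The groups lay close without overlap in Ifit1 and overlapped in Ifit3, and Bach2KO replicate 3 was the lowest of its group in both genes. Without it, both were called higher (adjusted p = 0.041 for Ifit1 and 0.0089 for Ifit3). Ifih1, the sensor MDA5, and Oas1a, which makes the activator of RNase L, differed by 0.06 and 0.07 and were not called, with overlapping groups and a sign that turned under each other scaling.

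Among the 6 genes of the ISG15, ADP-ribose and ubiquitin pathways, 4 rose (66.7%, beside 41.0% of all loci). Of the rest, 1 fell (16.7%, beside 33.6%) and 1 was not called. Isg15, the ubiquitin-like modifier that is a standard marker of type I signalling, was at 1.18, 1.16 and 1.00 FPKM in Bach2KO cells, against 1.83, 0.819 and 0.950 FPKM in WT cells. The groups overlapped, with WT replicate 1 the highest of the 6, and the difference of −0.03 (SE 0.22, limma adjusted p = 0.917) changed sign to 0.22 without that library. Usp18, which removes ISG15 from proteins and restrains the type I receptor, was at 1.53, 2.30 and 1.37 FPKM in Bach2KO cells, against 2.83, 2.92 and 3.03 FPKM in WT cells. It fell by 0.64 without overlap of the groups (SE 0.16, limma adjusted p = 0.0108).

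The ADP-ribosylation members Parp9 and Parp14 and the partner ligase Dtx3l rose. Outside the set, Parp11 fell by 0.65 (limma adjusted p = 6.5e-05) and Parp12 was not called (difference 0.09, limma adjusted p = 0.625). Parp9, which acts in a complex with the ubiquitin ligase encoded by Dtx3l, was at 31.7, 32.9 and 32.2 FPKM in Bach2KO cells, against 14.9, 15.0 and 14.9 FPKM in WT cells. Dtx3l was at 41.7, 42.8 and 40.7 FPKM in Bach2KO cells, against 20.3, 19.5 and 21.5 FPKM in WT cells. Parp9 rose by 1.08 (limma adjusted p = 3.6e-06) and Dtx3l by 1.01 (limma adjusted p = 1.2e-05). Their loci overlap by 558 bases on opposite strands of chromosome 16, and reads from the overlap cannot be told apart without strand. Parp14 nearby rose by 0.84 (limma adjusted p = 4.1e-04), and Trim21, an antibody receptor inside cells with ubiquitin ligase activity, rose by 0.28 (limma adjusted p = 0.0072), a call lost with equal sums (difference 0.02).

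Differences were large among the GTPases, though Socs1, Bst2 and Isg20 exceeded 4 of them. All 7 tested GTPases rose, with a median of 2.02. In the other members 14 of 24 were higher (58.3%) and 3 lower (12.5%), with a median of 0.53. Over all loci 41.0% were called higher and 33.6% lower. These 7 calls held under each of the 3 other scalings. In all 8 GTPases, the low Mx1 included, the 3 Bach2KO libraries lay above the 3 WT libraries. Gbp6, a guanylate-binding protein, had the largest difference of the set, with 70.7, 88.6 and 64.9 FPKM in Bach2KO cells, against 4.34, 3.63 and 5.12 FPKM in WT cells. It rose by 3.95 (SE 0.15, limma adjusted p = 5.7e-06). The close copy Gbp10 had 44.8, 54.9 and 40.4 FPKM in Bach2KO cells and 3.17, 2.40 and 3.73 FPKM in WT cells, and how reads were divided between such copies is uncertain.

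Gbp2 was at 137, 222 and 108 FPKM in Bach2KO cells, against 36.7, 29.7 and 43.9 FPKM in WT cells. It rose by 2.02 (SE 0.28, limma adjusted p = 9.4e-04), with means of 156 ± 59.6 FPKM in Bach2KO and 36.7 ± 7.09 FPKM in WT cells (SD, n = 3 libraries each). Gbp3 was at 20.5, 28.9 and 16.2 FPKM in Bach2KO cells, against 11.5, 9.29 and 13.4 FPKM in WT cells. Its libraries did not overlap, and its rise of 0.89 (limma adjusted p = 0.0129) lost the call when low loci were not filtered out (adjusted p = 0.0568).

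The 4 IRG genes rose by 1.44 to 3.49. Igtp, which encodes Irgm3 and is one of the regulatory IRGs, was the most abundant member in Bach2KO cells, at 393, 471 and 351 FPKM, against 60.6, 49.9 and 75.7 FPKM in WT cells. It rose by 2.71 (SE 0.18, limma adjusted p = 3.5e-05). Iigp1, an effector IRG that coats the vacuoles of intracellular parasites, was at 109, 126 and 94.5 FPKM in Bach2KO cells, against 9.10, 6.58 and 13.0 FPKM in WT cells. It rose by 3.49 (SE 0.24, limma adjusted p = 4.6e-05), and none of its libraries overlapped between genotypes.

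The other regulatory IRGs moved by less. Irgm1 was at 105, 133 and 91.1 FPKM in Bach2KO cells, against 39.3, 37.0 and 42.8 FPKM in WT cells, a rise of 1.44 (limma adjusted p = 1.9e-04). Irgm2 was at 50.3, 51.3 and 44.3 FPKM in Bach2KO cells, against 13.7, 11.1 and 15.4 FPKM in WT cells, a rise of 1.83 (limma adjusted p = 4.3e-05). In both genes the lowest Bach2KO library was above the highest WT library.

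Of the other effectors, 5 were tested, 4 rose (80%, beside 41.0% of all loci) and 1 was not called. A call in either direction was made at 74.7% of all loci. Bst2, the tetherin that holds budding virus at the cell surface, was at 57.6, 70.2 and 53.8 FPKM in Bach2KO cells, against 10.7, 8.67 and 12.2 FPKM in WT cells. It rose by 2.47 (SE 0.15, limma adjusted p = 2.6e-05). Tap1, a subunit of the peptide transporter for MHC class I, was at 193, 207 and 195 FPKM in Bach2KO cells, against 73.1, 63.5 and 73.9 FPKM in WT cells, a rise of 1.5 (limma adjusted p = 1.1e-05). Both genes separated the genotypes without overlap. Ifi35 rose by 0.81 (limma adjusted p = 0.0043). Rtp4 was at 2.09, 5.00 and 1.12 FPKM in Bach2KO cells, against 0.578, 0.636 and 0.631 FPKM in WT cells. Its rise of 1.35 (SE 0.43, limma adjusted p = 0.0274) lost the call without Bach2KO replicate 1 (adjusted p = 0.0579) or any one WT replicate (0.0664 to 0.0712). Xaf1, linked to cell death, differed by 0.08 and was not called (limma adjusted p = 0.566).

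Socs1, the inhibitor of JAK kinases that ends interferon signalling, had the third largest difference of the set. It was at 162, 181 and 141 FPKM in Bach2KO cells, against 14.8, 15.5 and 16.1 FPKM in WT cells. The groups were far apart, and Socs1 rose by 3.33 (SE 0.10, limma adjusted p = 2.3e-06).

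**Figure D2:**
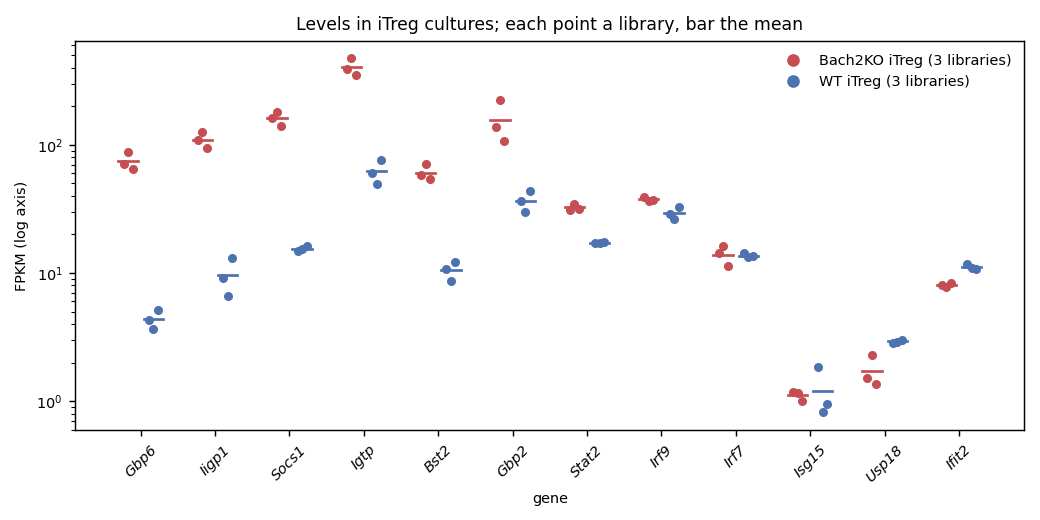
FPKM on a log axis of 12 members in the 3 Bach2KO and 3 WT iTreg libraries, each point a library and each bar the mean of a genotype. Gbp6, Iigp1, Socs1, Igtp, Bst2 and Gbp2 are apart by genotype with Bach2KO above, Irf7 and Isg15 overlap, and Usp18 and Ifit2 are lower in Bach2KO.

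**Figure D3:**
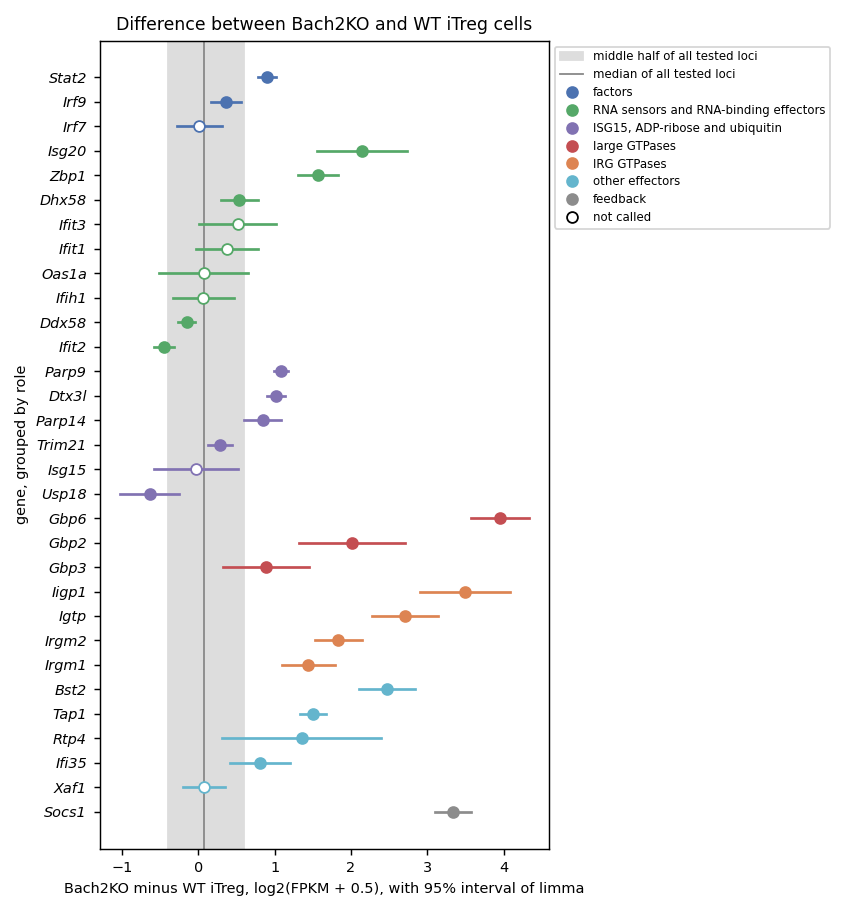
Difference between Bach2KO and WT iTreg cells on the log2(FPKM + 0.5) scale for the 31 tested members, by role, with the 95% interval of limma; open points were not called, and the grey band runs from the lower quartile (−0.40) to the upper quartile (0.60) of all tested loci. The GTPases, Isg20, Zbp1, Bst2, Tap1 and Socs1 lie to the right of the band, while Ifit1, Ifit3, Oas1a, Ifih1, Irf7, Isg15 and Xaf1 lie within it.

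Low levels kept 5 members out of the test. Rsad2, the antiviral enzyme viperin, was at 0.943, 0.478 and 1.04 FPKM in Bach2KO cells, from about 124, 56 and 114 reads, against 0.044, 0.045 and 0.009 FPKM in WT cells, from about 5, 5 and 1 reads. Mx1, a dynamin-like antiviral GTPase, was at 0.401, 0.362 and 0.419 FPKM in Bach2KO cells, against 0.153, 0.066 and 0.066 FPKM in WT cells. Both were above WT in all 3 Bach2KO libraries, and with no filter on low loci both were called higher (limma adjusted p = 0.0067 for Rsad2 and 0.0030 for Mx1). Oasl1, Oasl2 and Ifi44 had overlapping groups, and none was called without the filter (limma adjusted p of 0.713, 0.554 and 0.269). Their iTreg values stood on few reads, at most 98 in any library.

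Within genotypes, the members shared an order of libraries. Bach2KO replicate 2 was the highest of its group in 26 of the 31 tested members, against 45.2% of all tested loci, and WT replicate 2 was the lowest of its group in 21 of the 31, against 38.5%. Ifng, the gene of IFN-γ, followed the same order in Bach2KO cells, with 10.6, 22.8 and 3.99 FPKM in replicates 1, 2 and 3, against 0.032, 0 and 0.061 FPKM in WT cells. WT replicate 2 also had the lowest summed level of MHC class II and dendritic cell genes, at 29.2 FPKM, against 248 and 121 FPKM in WT replicates 1 and 3. In Bach2KO cells this sum was highest in replicate 1, with replicate 2 at 154 FPKM. The dendritic cell genes Itgax, Flt3 and Zbtb46 were at most 0.008, 0.549 and 0.356 FPKM in WT cells. The WT sums were thus mostly Cd74 and H2 genes, and they ranked the WT libraries as the B cell sums did. H2-Ab1 was also at 97.2 and 117 FPKM in the Th1 and Th2 libraries, so the sum does not measure dendritic cells. The part of Ifng and of any other cell type in the order was not tested. In a comparison of Bach2KO with WT replicate 2 alone, chosen after seeing these values, 18 members were higher and 1 lower, beside 3652 and 2723 of 11442 loci. The WT arm is then 1 library, assumed to vary like the Bach2KO libraries. Since that library was also the lowest of its group for most members, higher calls were favoured beforehand, and the count says nothing about stability. Gbp3, Dhx58, Ifi35 and Rtp4 were then no longer called higher, and Usp18 and Ddx58 no longer lower.

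Other genes of the pathway, outside the 36, give the setting of these values. Over 8 lists of ligands, receptors, factors, sensors, inhibitors and further targets, 86 loci were tested. Of the 86, 58 rose (67.4%, beside 41.0% of all loci) and 16 fell (18.6%, beside 33.6%). With equal sums 52 rose and 23 fell, beside 3283 and 5419 of all 11473 tested loci. Among the ligands, Ifng was the 1 gene tested, and it passed the filter through the Bach2KO libraries. Ifnb1, Ifna4 and Ifne were listed at 0 in all 10 libraries, and the other type I and III genes were under 0.3 FPKM in every iTreg library. Of the receptors and kinases, 8 were tested, and 3 rose and 4 fell (37.5% and 50.0%, beside 41.0% and 33.6% of all loci, and 2 and 6 with equal sums). Ifngr1 rose by 1.11, whereas its partner Ifngr2 fell by 0.86 and Jak1 by 1.09 (limma adjusted p of 4.6e-04, 6.5e-05 and 3.2e-05). Of 7 further factors, 4 rose and 1 fell (57.1% and 14.3%, beside 41.0% and 33.6% of all loci, and 4 and 2 with equal sums). Irf1, an early interferon-induced factor, rose by 2.04 and Irf8 by 2.69, whereas Irf3 fell by 0.70 (limma adjusted p of 4.5e-05, 5.3e-05 and 1.1e-04). Irf2 and Irf5 were not called. Of 9 tested sensing genes, 5 rose and 2 fell (55.6% and 22.2%, and 4 and 4 with equal sums). Of 8 negative regulators, 6 rose and 1 fell (75% and 12.5%, and 4 and 2 with equal sums).

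Targets outside the set are given by list, beside 41.0% of all loci called higher and 33.6% lower, and the lists were not tested against each other. All 12 genes of class I peptide loading rose, with a median of 0.94 (12 with equal sums and 11 with quantile normalization), and among them Psmb9, an immunoproteasome subunit, rose by 1.81 (limma adjusted p = 4.3e-06). Of 15 loci of other GTPases, 12 rose and 1 fell, with a median of 1.17. Of 26 further interferon-stimulated genes, 15 rose and 7 fell (57.7% and 26.9%, and 13 and 8 with equal sums). Among the 15, Oas3, Cmpk2, Ifitm1, Ifitm3 and Cxcl10 had a WT mean under 0.5 FPKM. They passed the filter only through the Bach2KO libraries, so a higher call was favoured beforehand for them. Ifitm2, a restriction factor for virus entry, rose by 3.29 and Oas3 by 3.40, whereas Ddx60, a helicase, fell by 1.53 and Herc6, the mouse ligase for ISG15, by 0.60 (limma adjusted p of 3.9e-06, 1.7e-06, 6.3e-05 and 2.4e-04). These genes were chosen as examples after their values were seen. Ddx60 had a Bach2KO mean of 0.476 FPKM and passed the filter only through the WT libraries, which favoured a lower call.

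The single libraries placed the same genes in another order. These libraries have no replicates, so no test was made and their differences have no replicate check. Naive cells had the highest level of all 10 libraries in 17 of the 36 members, against 10.4% of expressed loci. These were Irf7, Irf9, the 3 Ifit genes, Oas1a, Oasl1, Oasl2, Ddx58, Isg15, Usp18, Trim21, Mx1, Rsad2, Ifi44, Xaf1 and Rtp4. Of the 4 single libraries, naive was the highest in 21 members (23.4% of loci), Th1 in 13 (24.8%), Th2 in 1, Socs1 (23.6%), and Th17 in 1, Gbp3 (28.2%). Irf7 was at 5.53, 0.567 and 1.99 FPKM in the Th1, Th2 and Th17 libraries, against 38.3 FPKM in naive cells. Ifit3 was at 0.053, 0.052 and 0.086 FPKM in Th1, Th2 and Th17 cells, against 5.83 FPKM in naive cells, and Rtp4 at 0.069, 0.068 and 0.075 FPKM, against 12.7 FPKM.

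In each of the 3 helper cultures, 11 of the 36 members were at least 2-fold below naive cells (1 or more on the log2 scale), against 4.44% of loci. With quantile normalization over the 10 libraries the count was 17, but the share of all loci under that scaling is not given here. The naive library had a summed FPKM of 303348, against 464264, 472069 and 430495 in Th1, Th2 and Th17, so rescaling can lower all loci against naive cells. The 17 is therefore not read as a result about the members. In WT iTreg cells, 16 of 36 were at least 2-fold below naive cells in all 3 libraries, against 3.16% of loci. The median difference from naive cells was −0.52 for Th1, −1.78 for Th2, −1.34 for Th17 and −0.89 for WT iTreg cells on the log2(FPKM + 0.5) scale. Over all expressed loci it lay between 0.25 and 0.34. Gbp2 was the 1 member at least 2-fold above naive cells in every helper culture (14.9% of loci), and Gbp3 the 1 member so in all WT iTreg libraries (13.8% of loci).

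**Figure D4:**
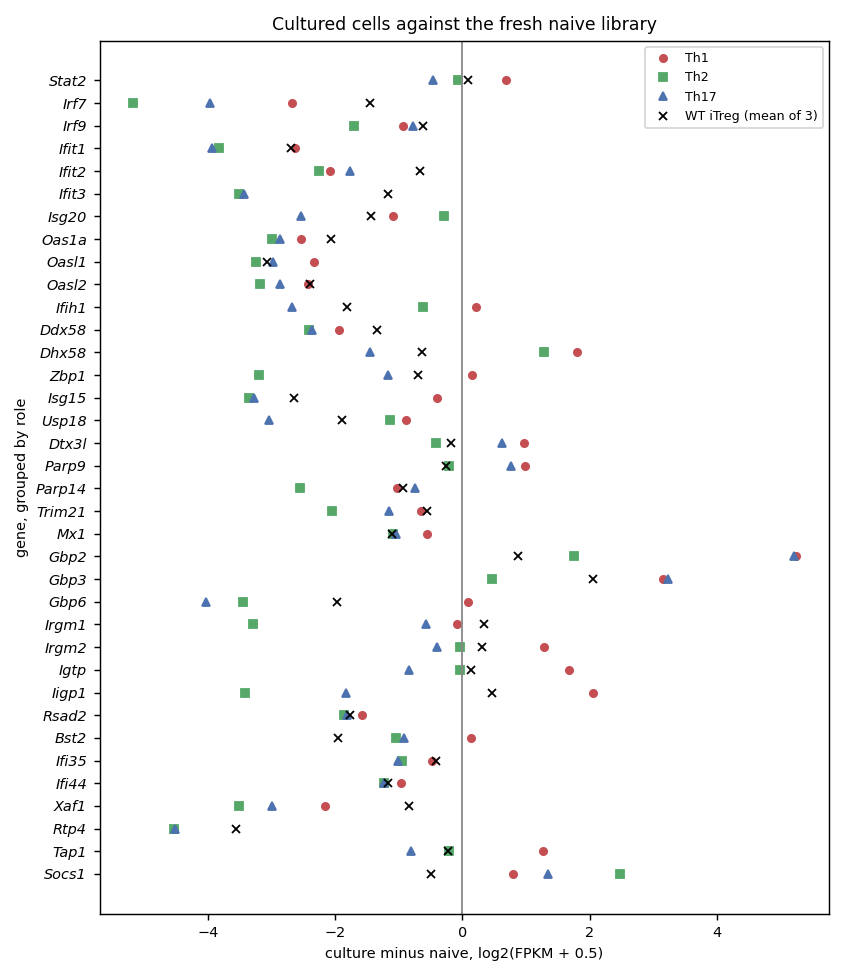
Difference of the Th1, Th2 and Th17 libraries and of the mean of the 3 WT iTreg libraries from the naive library, on the log2(FPKM + 0.5) scale, for each of the 36 members by role. Most points of the Ifit and Oas genes and of Ddx58 lie left of 0, Gbp2 and Gbp3 lie right of it in all cultures, and the IRG genes are spread on both sides with Th1 to the right of Th2 and Th17.

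Among the helper cultures, Th1 cells stood highest for most members. Of 29 members at 0.5 FPKM or more in a helper library, 23 were highest in Th1 cells (30.2% of loci), 2 in Th2 cells (27.9%) and 4 in Th17 cells (42.0%). Of the 29, 10 were at least 2-fold above both Th2 and Th17 cells, against 2.21%. The 10 were Irf7, Ifit1, Zbp1, Isg15, Gbp6, Irgm2, Igtp, Iigp1, Bst2 and Tap1. At 3-fold 4 of them remained, but the share of all loci at that fold is not given here. Iigp1 was at 28.8 FPKM in Th1 cells, against 0.159 in Th2 and 1.5 in Th17 cells, and Igtp at 179 FPKM, against 54.3 and 30.9 FPKM. Gbp6 was at 19.5 FPKM in Th1 cells, against 1.23 and 0.660 FPKM. Ifng was at 12.4 FPKM in the Th1 library and listed at 0 in the Th2 and Th17 libraries, both of which had the antibody to IFN-γ, and its part in the order was not tested.

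A smaller group was high in Th1 and Th17 cells alike. In 8 of the 29 members both were at least 2-fold above Th2 cells, against 2.45% of loci, namely Irf7, Zbp1, Dtx3l, Parp14, Gbp2, Gbp3, Irgm1 and Iigp1. Gbp2 was at 765, 67.8 and 745 FPKM in the Th1, Th2 and Th17 libraries, and Gbp3 at 24.6, 3.41 and 26.0 FPKM. Gbp2 was thus at a level in both cultures above each Bach2KO library. Socs1 alone was at least 2-fold higher in Th2 cells than in Th1 and Th17 cells (2.17% of loci), at 125 FPKM, against 38.7 and 56.6 FPKM.

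For 11 of the 36 members, all 3 Bach2KO libraries lay above all 7 others, against 14.0% of loci, and for 0 they lay below all 7 (4.77% of loci). The 11 were Stat2, Isg20, Zbp1, Gbp6, Irgm1, Irgm2, Igtp, Iigp1, Bst2, Ifi35 and Socs1. Iigp1, at 94.5 FPKM or more in Bach2KO cells, was at 28.8 FPKM in Th1 cells, the highest of the others. Ifit2, Ddx58, Usp18 and Isg15 were below the naive level in Bach2KO and WT iTreg cells alike. Across the 31 tested members, the difference between Th1 and naive cells and that between Bach2KO and WT cells had a Spearman rho of 0.547, against 0.495 over all 11473 tested loci. This is a description across genes, which are not independent replicates.

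Bach2 peaks lay near the starts of 17 of the 36 members. The authors' list held 22494 peaks from the single ChIP library, and a peak within 10 kb of the start was counted. The share of 47.2% stood beside 27.6% of all loci and 42.5% of the tested loci. Within 1 kb the count was 11 (30.6%), beside 11.2% of all and 19.2% of tested loci. Within 50 kb it was 30 (83.3%), beside 59.2% and 79.4%. With peaks of a deposited score of at least 100 it was 9 (25%), beside 17.0% and 27.2%. Of the 14 tested members with a peak, 12 were higher, 1 lower and 1 not called, with a median difference of 1.5. Of the 17 without one, 9 were higher, 2 lower and 6 not called, with a median of 0.36. Over all loci with a peak, 2089 of 4878 tested were higher and 1634 lower, with a median of 0.09. Over all loci without one, 2620 of 6595 were higher and 2223 lower, with a median of 0.06. Gbp6 and Iigp1, 2 of the members that rose most, had no peak within 10 kb.

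**Figure D5:**
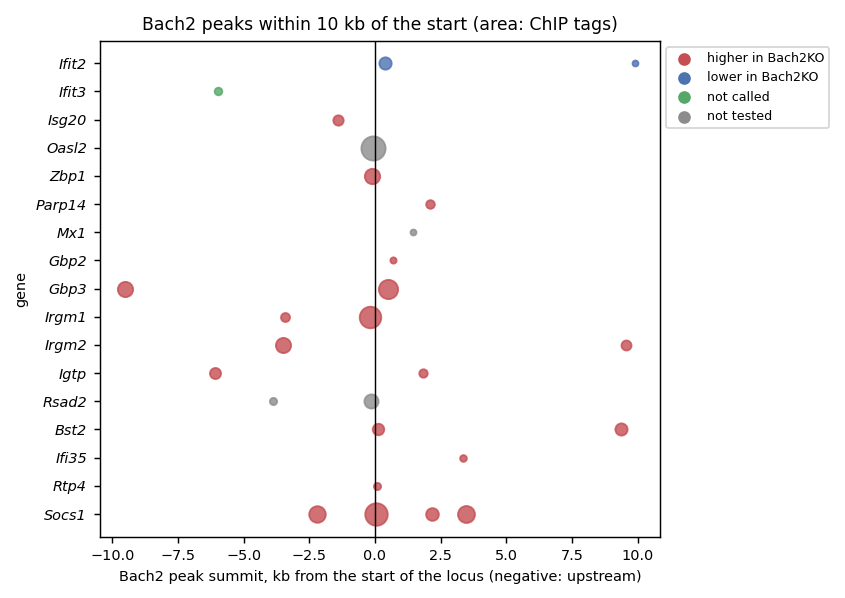
Position of each Bach2 peak summit within reach of a member's start, in kb along the strand of the gene (negative is upstream), with the area of the point in proportion to the deposited ChIP tags and the colour giving the call in Bach2KO against WT iTreg cells. The largest points, of Oasl2, Irgm1 and Socs1, lie at the start of the gene, and Gbp3 has a second large point far upstream.

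The peaks at starts varied in strength. Rtp4 had a peak over its start with 16 tags and an enrichment of 6.87-fold, by the authors' list. Irgm1 had a peak at chr11:48684649-48686552 (mm9, as all peak positions here), with 143 tags, an enrichment of 22.6-fold over background by the authors' list, and its summit 184 bases before the start. Rsad2 had a peak at chr12:27141048-27141714 with 62 tags and an enrichment of 25.6-fold, 142 bases before the start. The 101 bases around both summits recur without a difference in the RefSeq promoters shown above, where the Irgm1 stretch holds the TGAGTCA core and the Rsad2 stretch the ISRE core. The peak with the most tags, 180 at an enrichment of 40.9-fold, lay 64 bases before the start of Oasl2, a gene with 0.399, 1.02 and 0.366 FPKM in Bach2KO cells and 0.313, 0.385 and 0.463 FPKM in WT cells.

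Socs1 had 4 peaks, at 2200 bases before its start and at 38, 2162 and 3485 bases after it, with 85, 156, 50 and 89 tags. Igtp and Irgm2, neighbours on chromosome 11, each had a pair of peaks, none of them within 1 kb of the start. Of the genes that fell, Ifit2 had a peak 396 bases after its start, with 47 tags.

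The bases around 3 further summits are shown because they differ in which core they hold. They are given in mm9 coordinates, 5′ to 3′ on the strand of the gene, with the same 2 cores in capitals. The Zbp1 summit lies 93 bases before the start (73 tags), the Gbp3 summit 9511 bases before it (72 tags), and the Parp14 summit 2084 bases after it (23 tags).
Zbp1, chr2:173044466-173044566, minus strand: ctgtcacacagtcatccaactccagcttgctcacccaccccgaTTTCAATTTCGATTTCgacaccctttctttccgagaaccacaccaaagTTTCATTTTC
Gbp3, chr3:142213455-142213555, plus strand: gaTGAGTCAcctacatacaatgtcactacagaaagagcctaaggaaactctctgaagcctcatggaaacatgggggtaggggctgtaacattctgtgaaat
Parp14, chr16:35869334-35869434, minus strand: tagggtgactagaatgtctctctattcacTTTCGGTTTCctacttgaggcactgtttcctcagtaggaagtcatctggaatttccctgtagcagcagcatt
Zbp1 and Parp14 showed the ISRE core near the summit and no Maf or AP-1 core within 100 bases, whereas this distal Gbp3 summit showed the Maf or AP-1 core and no ISRE core. The nearer Gbp3 peak, 494 bases after the start with 114 tags, held both cores within 100 bases of its summit. Over the 27 peaks near members, the ISRE core was found within 100 bases of the summit in 7 (25.9%), against 4.32% of all peaks. The Maf or AP-1 core was found in 9 (33.3%), against 43.1% of all peaks, and the GAS core in 3 (11.1%), against 13.6%.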

How the data were processed

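RNA was measured as FPKM in 10 libraries and Bach2 binding as a peak list from 1 ChIP and 1 input library. The FPKM values were made by the authors with TopHat and Cufflinks from unique 50-bp reads on mm9, per the labels' protocols. For these tools, versions and the annotation used were not given in the sources used here. The peaks were called with MACS 1.4.0beta from 8992019 ChIP and 9999999 input tags at a p-value cutoff of 1e-05, per the file headers. The tag count, the score (from the p-value), the fold enrichment (a ratio of tags to background) and the percent FDR of each peak were deposited by the authors, per the file headers.

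Bach2KO and WT iTreg libraries were fitted on log2(FPKM + 0.5) with limma 3.58.1 under R 4.3.3, using eBayes with a trend. Loci averaging 0.5 FPKM or more in these 6 libraries entered. Each test was two-sided, with Benjamini-Hochberg adjustment over all 11473 loci and a threshold of 0.05. The procedure was also tested on simulated data. Single libraries were compared by fold alone, over loci with 0.5 FPKM in a library of those compared, and "2-fold" there means 1 or more on the same log2 scale. Replicate numbers did not pair the samples, with correlations of −0.04 to 0.01 between like numbers.

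Reads behind a value were estimated from the deposited 95% interval, taken as 2 Poisson SD, and cover counting error only. Peak distances run from the start of the locus, with strand from GENCODE vM1 of the same build. Every member is accounted for. Full statistics were given for the members called with the 4 largest differences in each direction and for a list of 9 named genes, and other members by values or counts. The members and lists were chosen with earlier results of these data known. Alternatives were another pseudocount, filter, scaling, fit, replicate block, single replicates left out, and other peak distances and thresholds.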

Additional observations from a re-analysis of the deposited data

How the results depend on the processing

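The number of members called higher lay between 18 and 23 over all alternatives, and between 20 and 23 with 1 library left out. The number called lower was 2 or 3, except 1 against WT replicate 2 alone, where the WT arm is 1 library. A replicate block left 21 higher and 2 lower (4346 and 3540 over all loci), with Ddx58 lost (adjusted p = 0.0585). Quantile normalization, equal sums and equal upper quartiles each gave 19 higher and 3 lower. Over all 11473 tested loci they gave, in that order, 3715, 3283 and 3778 higher and 4890, 5419 and 4844 lower. Under these scalings 4 uncalled members changed sign, for which the values in the same order were −0.125, −0.253 and −0.156 for Irf7, −0.154, −0.0707 and −0.0229 for Oas1a, −0.131, −0.127 and −0.058 for Ifih1, and −0.0767, −0.167 and −0.078 for Xaf1. With 1 library left out in turn, 4 uncalled members ranged over both signs, Irf7 between −0.0965 and 0.142, Ifih1 between −0.0438 and 0.20, Xaf1 between −0.0392 and 0.14 and Isg15 between −0.188 and 0.224. Against WT replicate 2 alone, an alternative chosen after seeing the data, Isg15 gave 0.292. The cause was not tested. Without the filter on low loci, Gbp3 and Rtp4 were lost and Mx1 and Rsad2 gained. The 10 members at least 2-fold higher in Th1 than in Th2 and Th17 cells became 4 at 3-fold, where the share of all loci is not given here. The 11 below naive cells in every helper culture became 17 with quantile normalization, where the share of all loci is not given here. Members with a peak numbered 11 within 1 kb, 30 within 50 kb and 9 at a deposited score of at least 100, in place of 17, and at 50 kb (83.3%, beside 79.4% of tested loci) and at that score (25%, beside 27.2%) the shares were near the background. Low reads limit Rsad2, Mx1, Oasl1, Oasl2 and Ifi44, and the single libraries have no spread.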
